A study of Mus musculus with 4 samples.

Results

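Mef2a, Mef2c and Mef2d encode the MEF2 transcription factors of skeletal muscle, and their transcript levels were compared between primary myoblasts of Tet2 KO and wild type (WT) mice. The genes were taken by symbol from the deposited expression table, where all 3 were found among 24445 genes. The cells came from C57BL/6 mice, and per the study's methods from males of 8 to 10 weeks unless stated differently. In the Tet2 KO animals exon 3 of Tet2, which encodes an enzyme that oxidises 5-methylcytosine, was deleted in all tissues, and the WT animals carried no such deletion. Satellite cells, the stem cells of muscle, were sorted from hindlimb muscle (negative for CD45, CD11b, CD31 and Sca1, positive for CD34 and integrin alpha 7) and grown on collagen in proliferation medium for at least 3 days, when they had become myoblasts expressing MyoD. RNA was sequenced from 2 libraries in each group, and how many animals stood behind a library was not given in the sources used here. The table gives 1 value per gene and group, which combines the libraries, so no spread between replicates, no standard deviation and no p-value stands beside any value below.

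MEF2 proteins belong to the MADS-box family. They bind as dimers to an A/T-rich DNA element that is common in the control regions of muscle genes, where they act together with the myogenic factors of the MyoD family. They do not start the muscle programme by themselves but amplify it during differentiation. Class IIa histone deacetylases hold them in check until calcium signals release them. In cultured muscle cells Mef2a and Mef2d transcripts are present in proliferating myoblasts, whereas Mef2c is known as a gene that is switched on as myoblasts differentiate.

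The genes differ in their control regions. Mef2a lies on the minus strand of chromosome 7 (chr7:74376049-74517744 in mouse build mm9) with 10 annotated transcripts. Mef2c lies on the plus strand of chromosome 13 (chr13:83643033-83806684) with 5 transcripts, and Mef2d on the plus strand of chromosome 3 (chr3:87946294-87976008) with 8. The promoter windows of RefSeq (build GRCm38.p6, 250 bases before to 50 bases after a start) are shown for each gene to set the CpG-rich starts of Mef2a and Mef2d beside the CpG-poor distal start of Mef2c. Each window matched mm9 once on its chromosome, and the coordinates are those of that match. Capitals mark E boxes (CANNTG, the element of MyoD and its relatives, which reads the same on both strands) and the MEF2 consensus, searched on both strands.
Mef2a promoter (chr7:74517695-74517994, minus strand): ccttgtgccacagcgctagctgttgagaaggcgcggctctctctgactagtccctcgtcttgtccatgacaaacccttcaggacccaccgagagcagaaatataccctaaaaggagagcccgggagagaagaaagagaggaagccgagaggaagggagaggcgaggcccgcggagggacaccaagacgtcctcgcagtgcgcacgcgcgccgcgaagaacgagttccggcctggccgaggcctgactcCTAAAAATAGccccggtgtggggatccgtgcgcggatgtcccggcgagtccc
Mef2c distal promoter (chr13:83642783-83643082, plus strand): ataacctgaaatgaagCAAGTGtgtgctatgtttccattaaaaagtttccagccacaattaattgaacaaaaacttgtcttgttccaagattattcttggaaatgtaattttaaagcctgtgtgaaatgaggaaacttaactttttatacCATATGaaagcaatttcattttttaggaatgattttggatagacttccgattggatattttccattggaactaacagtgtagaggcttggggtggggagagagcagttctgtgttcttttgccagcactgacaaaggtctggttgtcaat
Mef2d promoter (chr3:87946044-87946343, plus strand): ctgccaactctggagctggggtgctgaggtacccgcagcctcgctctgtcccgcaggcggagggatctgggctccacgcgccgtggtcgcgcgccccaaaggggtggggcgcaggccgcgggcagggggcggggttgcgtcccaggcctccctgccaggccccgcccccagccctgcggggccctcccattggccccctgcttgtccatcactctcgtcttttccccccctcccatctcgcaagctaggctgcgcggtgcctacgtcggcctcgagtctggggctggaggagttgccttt

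The Mef2a window held 27 CpG dinucleotides and 62.3% G and C, and the Mef2d window held 24 and 72.0%. The distal Mef2c window held 1 CpG and 35.7% G and C. Mef2c has further RefSeq starts 19.62 and 69.73 kb downstream, and their windows held 10 and 4 CpG dinucleotides. A MEF2 consensus was found in the Mef2a window, beginning 2 bases before the annotated start, and in none of the other 4 windows. Such a match was present in 3.19% of the 32851 mouse promoter windows of RefSeq. E boxes were found in the distal Mef2c window, which held 2, and in the window of its most downstream start, which held 1. They are common, with at least 1 in 72.3% of all windows. A match of letters is a description and not a bound site.

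The study also made bisulfite assays named for Mef2c. The 2 pairs of primers in its primer list were matched to chromosome 13 of mm9 after conversion of C to T. Each pair gave a single product there, and other chromosomes were not searched. Both products lay far outside the gene, 362.2 and 390.8 kb upstream of the Mef2c start, and Mef2c was the nearest gene of the table to each. The product of the nearer pair (347 bases, chr13:83280501-83280847) held 5 CpG dinucleotides, 2 E boxes and no MEF2 consensus. The product of the farther pair (355 bases, chr13:83251849-83252203) held 6 CpG dinucleotides, 2 E boxes and 1 MEF2 consensus. The stretches from the outermost CpG dinucleotides, with 10 bases on either side, are shown with each CpG in capitals, since these are the positions at which methylation could be read. Methylation was not analysed here.
Nearer Mef2c bisulfite region (chr13:83280579-83280817, plus strand): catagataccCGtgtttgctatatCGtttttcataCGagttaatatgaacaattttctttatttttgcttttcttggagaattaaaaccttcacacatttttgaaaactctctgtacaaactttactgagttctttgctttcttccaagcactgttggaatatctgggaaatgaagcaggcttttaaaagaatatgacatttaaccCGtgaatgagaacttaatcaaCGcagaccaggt
Farther Mef2c bisulfite region (chr13:83251870-83252163, plus strand): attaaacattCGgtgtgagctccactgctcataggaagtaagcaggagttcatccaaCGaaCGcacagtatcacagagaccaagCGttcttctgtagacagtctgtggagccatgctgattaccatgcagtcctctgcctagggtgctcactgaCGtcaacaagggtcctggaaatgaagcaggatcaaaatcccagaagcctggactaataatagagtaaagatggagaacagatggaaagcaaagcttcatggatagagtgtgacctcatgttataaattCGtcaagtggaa

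All 3 Mef2 genes had lower values in Tet2 KO than in WT myoblasts, and Mef2c was lower by more than 2-fold. Levels are given as FPKM, fragments per 1000 bases of transcript and 1000000 mapped fragments, which are per length and can be set side by side between genes. Differences are given as log2(FPKM + 1) in Tet2 KO minus WT, a scale that understates the change of low genes. Genes whose FPKM averaged 1 or more over both groups are termed expressed. An expressed gene was called lower or higher when this difference reached 1, which is 2-fold. Of the 11692 expressed genes, 5989 (51.2%) had a difference below 0. In bulk RNA fewer cells of a type and less RNA per cell cannot be told apart.

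Mef2c, the member tied to differentiation, had 27.8 FPKM in WT and 11.1 FPKM in Tet2 KO. The difference was -1.26, and on the linear scale the Tet2 KO value was 60.3% lower. Mef2c was thus called lower, as were 1.21% of the 11692 expressed genes (142 genes). Among these genes 82, or 0.701%, had a lower difference than Mef2c. Among the 4500 genes whose mean level lay within 2-fold of that of Mef2c, 33 had a lower difference (0.733%).

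Mef2a was the most abundant member in both groups, with 72.9 FPKM in WT and 48.7 FPKM in Tet2 KO. Its level in WT was above that of 94.7% of all genes of the table. The difference was -0.57, which did not reach the call, and the linear value was 33.3% lower in Tet2 KO. Within 2-fold of its mean level, 52 of 2420 genes (2.15%) had a lower difference than Mef2a. Mef2a and Mef2c thus stood among the lowest few percent of genes of like level by different margins.

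Mef2d was the least abundant of the 3, with 8.81 FPKM in WT and 7.12 FPKM in Tet2 KO. Its difference of -0.27 was the smallest of the members and was not called. Among genes within 2-fold of its level, 400 of 4047 (9.88%) had a lower difference. The deposited locus of Mef2d extends to the end of 1700113A16Rik, a lincRNA annotated on the opposite strand, and the annotated genes overlap by 527 bases at the 3′ end of Mef2d. The counting is not stated to use strand, so reads in that overlap cannot be told apart. 1700113A16Rik had 3.56 FPKM in WT and 3.74 FPKM in Tet2 KO.

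**Figure D1:**
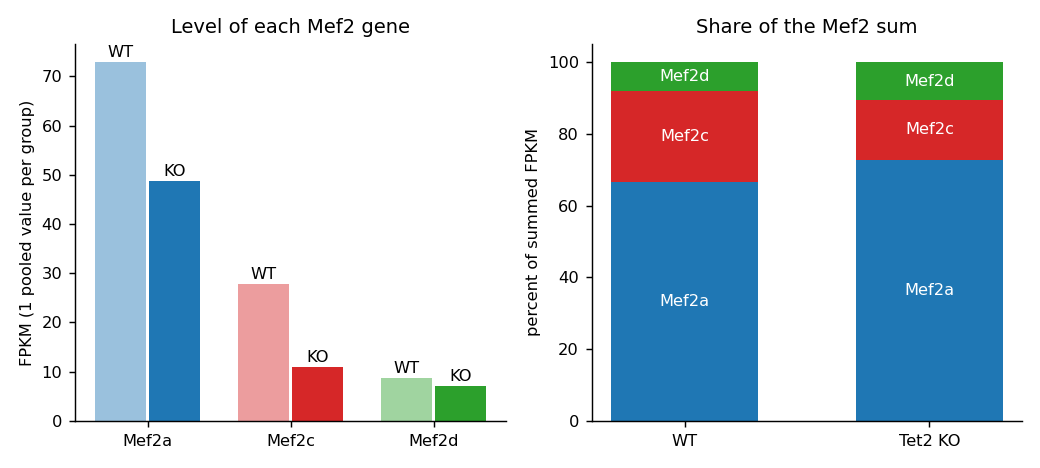
Left, FPKM of each Mef2 gene in WT (pale bars) and Tet2 KO (full bars), 1 pooled value per group and therefore without error bars; right, the percent of the summed FPKM held by each gene. Every Tet2 KO bar is lower than its WT bar, from 27.8 to 11.1 FPKM for Mef2c, and the share of Mef2c shrinks from 25.4% to 16.5%.

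**Figure D2:**
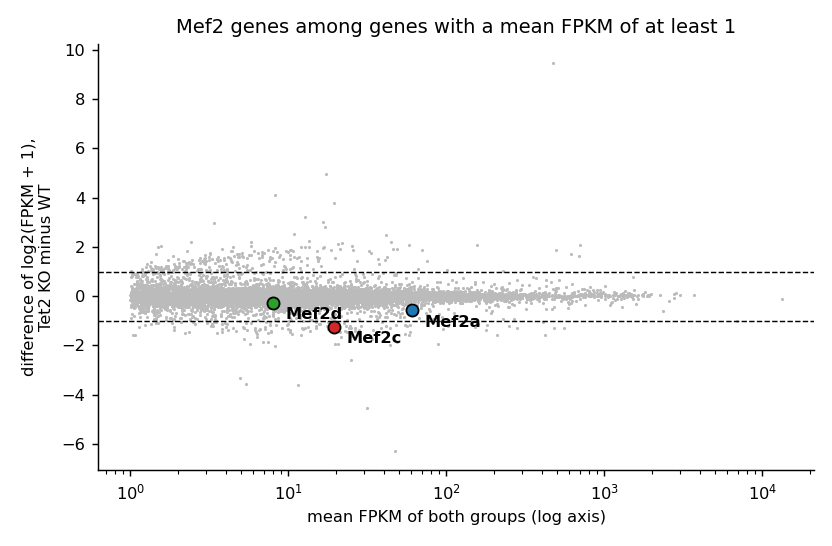
Difference of log2(FPKM + 1), Tet2 KO minus WT, against the mean FPKM of both groups (log axis) for the 11692 expressed genes, with the Mef2 genes in colour. Dashed lines mark the 2-fold call, and Mef2c at -1.26 is the only Mef2 gene beyond the lower line.

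The order of the levels was Mef2a, Mef2c, Mef2d in both groups, and whether neighbours in that order differed beyond their spread could not be examined with 1 value per group. The distance between neighbours changed. Mef2c stood 3.16 times above Mef2d in WT and 1.55 times above it in Tet2 KO. Mef2a stood 2.62 times above Mef2c in WT and 4.40 times above it in Tet2 KO. The summed level of the genes was 109.6 FPKM in WT and 66.8 FPKM in Tet2 KO, a difference of -0.70. Mef2a held 66.6% of the sum in WT and 72.8% in Tet2 KO, Mef2c held 25.4% and 16.5%, and Mef2d held 8.04% and 10.6%. Although Mef2c had the largest relative difference, the abundant Mef2a made up 56.8% of the 42.7 FPKM by which the sum was lower, Mef2c 39.2% and Mef2d 3.97%.

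Mef2b, the remaining gene of the family and not one of the genes chosen here, was practically silent. The table listed it at 0 in WT and gave 0.0635 FPKM in Tet2 KO. The values below concern Mef2a, Mef2c and Mef2d.

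The proteins encoded by the members are alike at their N-terminal end, which carries the MADS box and the MEF2 domain for DNA binding and dimerisation, and diverge in the transactivation region that follows. The longest annotated proteins have 498 residues for Mef2a, 474 for Mef2c and 514 for Mef2d. Over the first 86 residues of Mef2c, Mef2a was identical at 85 and Mef2d at 80. Over the whole alignment, identity to Mef2c was 65.0% for Mef2a and 58.1% for Mef2d. At the nucleotide level no annotated protein-coding transcript of one member shared an exact stretch of 50 bases with a transcript of another. The longest exact stretch was 28 bases, between Mef2c and Mef2d, 17 between Mef2a and Mef2c, and 13 between Mef2a and Mef2d. The gene-level values do not separate the alternatively spliced forms of any member.

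**Figure D3:**
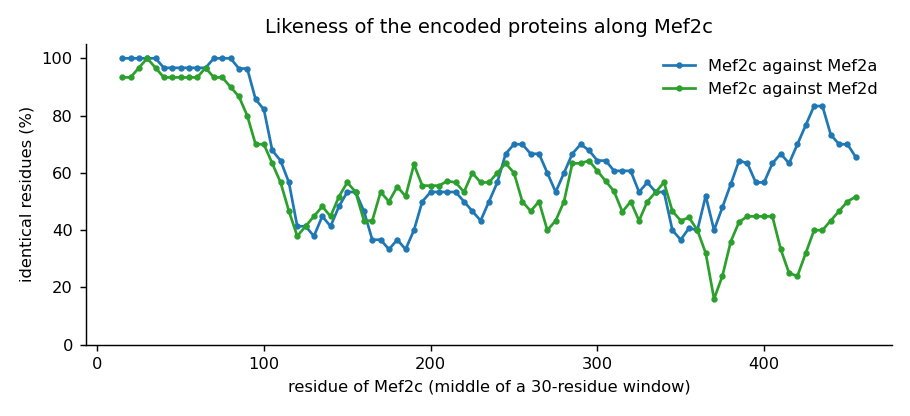
Percent of identical residues in windows of 30 residues along the Mef2c protein, against Mef2a (blue) and Mef2d (green), plotted at the middle of each window. Identity is close to complete over the N-terminal DNA-binding part, 98.8% for Mef2a and 93.0% for Mef2d over the first 86 residues, and lower after it.

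Genes that lie beside each member were examined next. Within 500 kb of Mef2c the table held 4 other genes, and none was expressed, the highest having a mean of 0.00765 FPKM. Mef2c was therefore the only expressed gene of its region. Of 8 genes within 500 kb of Mef2a, 3 were expressed. Lysmd4, which begins 2.695 kb from Mef2a, had a difference of -0.15, Lrrc28 of -0.01 and Ttc23 of -0.08, all smaller in size than that of Mef2a. Around Mef2d 26 of 45 genes were expressed, with a median difference of -0.02, and 2 of them were lower than Mef2d. The nearest besides 1700113A16Rik were Iqgap3 at -0.01, Apoa1bp at -0.11 and Gpatch4 at 0.03. None of the expressed neighbours of any member was called in either direction. Over the 11692 expressed genes 1.21% were called lower and 2.08% higher, so few calls would be expected among these neighbours.

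**Figure D4:**
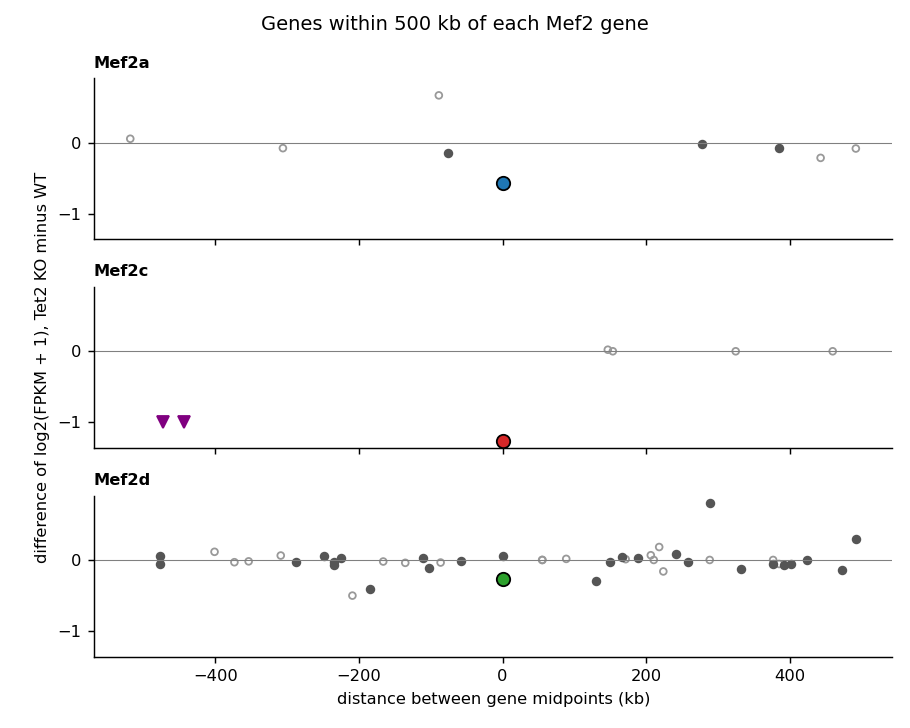
Difference of log2(FPKM + 1), Tet2 KO minus WT, of the genes within 500 kb of each Mef2 gene, against the distance between gene midpoints in kb; filled grey points are expressed genes, open points are not, and coloured points are the Mef2 genes. Purple triangles, whose height has no meaning, mark the bisulfite regions 362.2 and 390.8 kb upstream of the Mef2c start; Mef2c has no expressed neighbour, and Mef2a lies below all 3 of its own.

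Genes with values most like each member were sought by the Euclidean distance over the 2 group values of log2(FPKM + 1). With only 2 values per gene this measure describes level and difference and nothing further. Nearest to Mef2c were Sdpr (27.8 FPKM in WT and 11.8 FPKM in Tet2 KO), Tmem37 (26.2 and 10.5 FPKM) and Myh7, the slow and cardiac beta myosin heavy chain (30.4 and 11.4 FPKM). Nearest to Mef2a were Tgtp1, Cfl2, the muscle form of the actin-severing protein cofilin, and Ncam1, a cell adhesion molecule, with differences of -0.51, -0.42 and -0.65. Nearest to Mef2d were Ctrb1, Klc2 and Ubash3b, with differences between -0.30 and -0.26.

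The genes around the MEF2 factors were grouped by their role. Of 15 genes widely described as direct MEF2 targets in muscle, 14 were expressed. The call of lower was reached by 7 of them and the call of higher by 0, against 1.21% and 2.08% of the 11692 expressed genes. Of the 14 differences 13 were below 0, against 51.2% over all expressed genes. Their median difference was -0.99, and that of all expressed genes was -0.0044. The list was drawn up with earlier results of these data known. Myog, Ckm, Myom2 and Casq2 had also been picked by the study on these samples. Of these, Myog and Myom2 had been followed up with further assays. The list is therefore not independent evidence of its direction. The lowest was Myom2, a structural protein of the M-band, with 38.5 FPKM in WT and 10.2 FPKM in Tet2 KO, a difference of -1.82. Casq2, which binds calcium in the sarcoplasmic reticulum, had a difference of -1.57, and Myom1, another M-band protein, of -1.47. Xirp2 and Xirp1, which bind actin filaments, had differences of -1.32 and -1.30, and Srpk3, a muscle kinase of splicing factors whose gene is a textbook MEF2 target, of -1.28. The highest of the list was the metabolic coactivator gene Ppargc1a at 0.04. Jun, an immediate early factor picked out after the values were seen, had -0.22.

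Genes that act on MEF2 proteins stood closer to the median of all expressed genes. Of the 5 repressors 4 were expressed, with a median difference of -0.05, and none was called. Over the 11692 expressed genes 1.21% were called lower and 2.08% higher, so lists as small as those below would be expected to hold few calls. The class IIa deacetylase Hdac4 had the lowest difference, -0.15, and Hdac7 the highest, 0.07, while Hdac9, itself a MEF2 target, was below that level. Of 13 coactivators and partners 10 were expressed, with a median of 0.02, and they ranged from -0.16 for Vgll4 to 0.14 for the acetyltransferase gene Ep300, with none called. Of 23 genes of upstream signalling 22 were expressed, with a median of -0.05. The 1 gene called was Mapk13, a p38 kinase, which was higher, with 5.38 FPKM in WT and 13.6 FPKM in Tet2 KO. Over the 11692 expressed genes 2.08% were called higher. The lowest of this list was Camk2a, a calcium-dependent kinase, at 1.60 FPKM in WT and 0.501 FPKM in Tet2 KO, a difference of -0.80. Mapk14, the p38 kinase best known for acting on MEF2, had 26.3 FPKM in WT and 29.0 FPKM in Tet2 KO; it was picked out after the values were seen. All 7 regulators of Mef2 splicing were expressed, with a median of -0.04, and none was called. They ranged from -0.42 for Rbfox1 to 0.31 for Mbnl3.

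The list of E-box factors held myogenic factors and their E protein partners, which share muscle enhancers with MEF2. It also held the Id genes, whose products inhibit these factors. Of the 10 genes listed 1 was called lower, against 1.21% of the 11692 expressed genes. The gene called was Myog, which encodes myogenin and is also in the target list. It had 554 FPKM in WT and 268 FPKM in Tet2 KO, a difference of -1.04, less far from 0 than that of Mef2c at -1.26. The highest was Id2, an inhibitor of these factors, at 0.19, and the median of the list was -0.10.

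**Figure D5:**
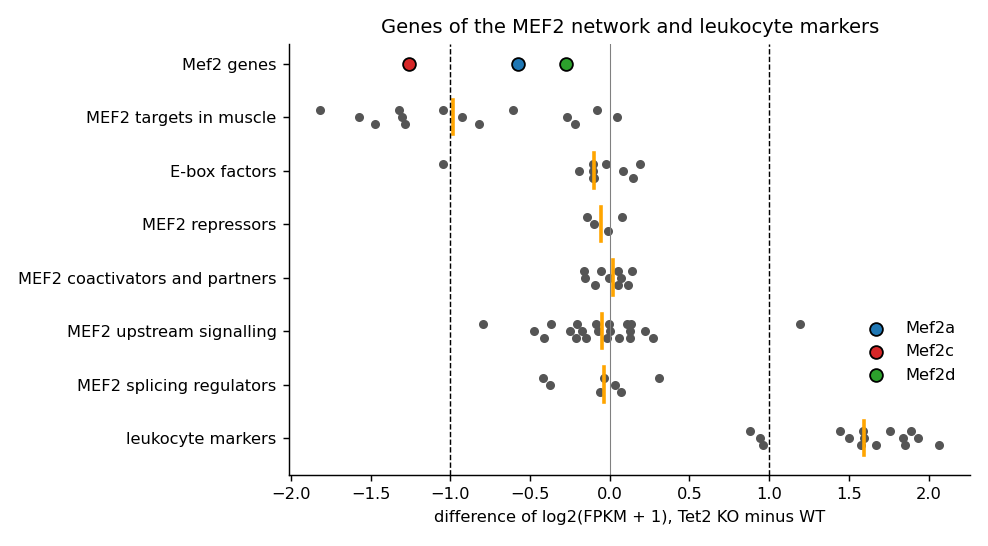
Difference of log2(FPKM + 1), Tet2 KO minus WT, of the Mef2 genes (coloured) and of each expressed gene in 6 lists around MEF2 and in the leukocyte marker list (grey points, 1 per gene; orange bars, list medians; dashed lines, the 2-fold call). The targets, a list drawn up with earlier results of these data known, centre on -0.99. The lists of repressors, partners, signalling and splicing genes centre close to 0, and the leukocyte markers lie at 0.88 and above.

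The cells carried the markers of their label. All 8 myoblast markers were expressed, with a median of -0.10, and Myod1 had 336 FPKM in WT and 313 FPKM in Tet2 KO. None was called, against 1.21% called lower and 2.08% called higher over the 11692 expressed genes. Of the 8 differences 7 were below 0, against 51.2% over all expressed genes. In that list Cd34 was highest at 0.94 and Des, the muscle intermediate filament, lowest at -0.27. The Tet2 value, 6.64 FPKM in WT and 5.79 FPKM in Tet2 KO, covers all exons and does not check the deletion. Mef2 genes are also expressed in other cells, so markers of those were set beside them. All 15 leukocyte markers of the table were higher in Tet2 KO. Of them 12 were called higher, against 2.08% of the 11692 expressed genes. The 15 differences ranged from 0.88 for Cd14 to 2.07 for Lyz2 with a median of 1.60. The summed level of these markers was 127.1 FPKM in WT and 501.5 FPKM in Tet2 KO, although the sort had removed cells with CD45 or CD11b. The leukocyte markers thus moved opposite to the Mef2 genes, and their part in the Mef2 differences was not tested. The 5 B cell markers were near 0, at most 0.175 FPKM, as were the 4 heart muscle markers, at most 0.0819 FPKM. Of 6 endothelial markers 1, Pecam1, was expressed, and the 6 summed to 3.999 FPKM in WT and 3.57 FPKM in Tet2 KO. Of 6 fibroblast markers 5 were expressed and none was called, from 0.11 for Thy1 to 0.95 for Dcn with a median of 0.32, with a summed level of 160.3 FPKM in WT and 185.5 FPKM in Tet2 KO.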

How the data were processed

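RNA-seq libraries (TruSeq RNA Library Preparation Kit v2, total RNA) of WT and Tet2 KO primary myoblasts, 2 per group, were examined. Per the study's methods and the submitters' processing notes, the authors trimmed adapters, filtered low quality reads, aligned read pairs to mm9 with TopHat2 2.0.13 and estimated and compared expression with Cuffdiff 2.2.1. The gene annotation was not given in the sources used here, nor was the way in which the libraries of a group were combined. The authors deposited 1 FPKM value per gene and group, scaled between groups by their program. The deposited table also holds the authors' own comparison (log2 fold change, test statistic, p-value, q-value and call), of which nothing was used. Depth per library is unknown, and no counts could be recovered, so neither intervals nor p-values were computed. The labels do not say whether the libraries of a group came from separate animals.

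Differences of log2(FPKM + 1) were computed over all 24445 genes, and genes averaging 1 FPKM or more over both groups (expressed genes) were called at 2-fold. The calculation was run on simulated data, in which changes larger than the fold of a call were put on WT values. That run checks the arithmetic only, and not the spread between libraries or the behaviour of low genes. Transcripts and proteins were taken from GENCODE vM1 (mm9), proteins were aligned with MAFFT 7.526, and Python 3.11.15, numpy 2.4.6, pandas 2.3.3 and matplotlib 3.10.9 were used. Promoter sequences came from RefSeq, and all 3 genes matched by symbol. The members and the lists were chosen with earlier results of these data known. The 2-fold band of levels, the searches for motifs and the bisulfite regions were chosen after the values were seen. Genes named were the members, Mef2b and Tet2, the extreme expressed members of each list and up to 6 called genes a list. Added to these were up to 4 expressed neighbours a member and the 3 genes nearest in value to each member. Jun, Mapk14, Myod1, Hdac9 and Ckm were named outside this rule. Alternatives were the pseudocount, the scaling, the filter on low values and the fold of a call.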

Additional observations from a re-analysis of the deposited data

How the results depend on the processing

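No paired analysis was possible because values of single libraries were not used here, each group being represented by 1 combined value, and no library could be left out. Under pseudocounts of 0.1 and 0, TPM scaling and median centring, Mef2c stayed called lower, between -1.33 and -1.25, while Mef2a (-0.58 to -0.57) and Mef2d (-0.31 to -0.27) stayed below 0 and were not called, also at 1.5-fold. Mef2a fell just short of that limit. The summed level passed the 1.5-fold limit, with its value of -0.70. TPM shifted the median over expressed genes by 0.0031 and centring by 0.0044, and the shares of the sum did not move with TPM.

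The median of the MEF2 targets, -0.99, passed 2-fold at a pseudocount of 0.1 (-1.04), with no pseudocount (-1.08), under TPM (-1.01) and at a mean FPKM of at least 5 (-1.28), and at -0.99 passed 1.5-fold. Genes called lower over the table numbered 142, and 215 at a pseudocount of 0.1, 224 with none and 338 at 1.5-fold. Genes called higher numbered 243, 109 at a mean FPKM of at least 5 and 435 at 1.5-fold. At a pseudocount of 0.1, with none, under TPM and at 1.5-fold, 1 gene each was called lower among upstream signalling and higher among myoblast and fibroblast markers, against 0. No list median changed sign; the B cell and heart muscle lists held no expressed gene and gave none. Medians of uncalled lists that moved by over 1.5 times were those of the fibroblast markers (0.32, and 0.56 at a mean FPKM of at least 5), repressors (-0.05, and -0.10 with no filter), coactivators (0.02, and 0.05 with no filter or at 5), upstream signalling (-0.05, -0.03 with no filter and -0.01 at 5), splicing regulators (-0.04, and -0.0017 at 5) and endothelial markers (-0.08, -0.13 at a pseudocount of 0.1, -0.14 with none and -0.03 with no filter). The other recomputed values moved by less than 1.5 times. Unknown depth limits low genes most.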
